A study of Homo sapiens with 20 samples.

Results

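Human embryonic kidney cells with hairpins against Dicer, Ago2 or Drosha were compared with wild-type (wt) cells. The outermost part of the short arm of chromosome 1 was described gene by gene in their chromatin-associated RNA (chrRNA-seq) and mRNA-seq. It was taken as the protein-coding genes that start between positions 1 and 27336400 of chromosome 1 (GRCh38), and 7 genes of that stretch (ISG15, RBP7, EXOSC10, RPL11, RPL22, HNRNPR and SRSF10) were left out. This gave 366 genes of the 57087 genes in the files, of which 19655 are protein-coding. The boundary was chosen by the measured fold changes in shDicer and shAgo2 chromatin RNA, so the values of those contrasts are given as a description.

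The chromatin RNA libraries were 2 wt, 2 shDicer, 2 shAgo2 and 2 labelled shDrosha, and the mRNA-seq libraries were 3 wt and 3 shDicer. The mRNA-seq labels call the wt cells HEK293T and the shDicer cells HEK293 2B, and give 3 µg/ml doxycycline for 7 days in both groups. The shDicer and shAgo2 chromatin RNA came from stable lines with doxycycline-inducible hairpins (3 µg/ml for 72 h). The methods list recombinant HEK293T-REx lines with shDicer or shAgo2 cassettes and, apart from these, a clone that carries shDicer beside a tagged Dicer, and which of them gave the shDicer libraries is not given in the sources used here. The hairpin against Drosha was transfected on a plasmid. The methods name both wild type HEK293T and recombinant HEK293T-REx cells for such transfections. Which of them hosted these libraries is not given in the sources used here, nor is whether the wt and shDrosha chromatin samples received doxycycline. Because the inducible knockdowns were made in recombinant lines and no line with a control hairpin was analysed here, the knockdown and the line cannot be told apart. The labels do not say whether replicates were separate cultures, so p-values measure the spread between these samples, which may be technical.

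Distal 1p is a gene-dense, GC-rich stretch next to the telomere. It is known for genes of mitochondrial quality control (PINK1, PARK7), of growth signalling (MTOR) and of chromatin (ARID1A, KDM1A), and its loss is a recurrent event in neuroblastoma and other tumours. The amount of chromatin-bound RNA of a gene follows how many templates are transcribed, how often, and how long the transcript stays on the chromatin, while mRNA also depends on export and decay. In bulk RNA, fewer cells with a transcript and less transcript per cell cannot be told apart.

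Promoter windows of 3 genes mark where the stretch ends, and they are shown because the results below turn on the order of these genes along the chromosome. TMEM222 is the last member (window chr1:27321995-27322294, plus strand). IFI6 is the last tested gene before the change point described below (chr1:27672143-27672442, minus strand), and FAM76A is the next tested gene (chr1:27725711-27726010, plus strand). The sequences are from RefSeq (GRCh38.p14), run from 250 bases before to 50 after the start of the gene, 5′ to 3′, and the capitals mark the letters GGGCGG or, on the other strand, CCGCCC (the core of a GC box).

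TMEM222: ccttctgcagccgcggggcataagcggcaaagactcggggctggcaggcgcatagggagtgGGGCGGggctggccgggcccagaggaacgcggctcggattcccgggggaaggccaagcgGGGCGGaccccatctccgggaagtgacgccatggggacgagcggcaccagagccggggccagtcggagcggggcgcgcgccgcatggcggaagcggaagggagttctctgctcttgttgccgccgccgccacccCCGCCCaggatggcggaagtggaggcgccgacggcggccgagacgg
IFI6: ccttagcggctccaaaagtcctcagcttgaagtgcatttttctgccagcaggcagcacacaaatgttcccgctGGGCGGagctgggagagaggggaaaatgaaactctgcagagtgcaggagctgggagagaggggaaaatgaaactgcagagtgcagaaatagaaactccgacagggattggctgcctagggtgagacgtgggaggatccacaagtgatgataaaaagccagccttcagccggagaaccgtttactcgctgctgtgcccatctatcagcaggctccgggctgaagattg
FAM76A: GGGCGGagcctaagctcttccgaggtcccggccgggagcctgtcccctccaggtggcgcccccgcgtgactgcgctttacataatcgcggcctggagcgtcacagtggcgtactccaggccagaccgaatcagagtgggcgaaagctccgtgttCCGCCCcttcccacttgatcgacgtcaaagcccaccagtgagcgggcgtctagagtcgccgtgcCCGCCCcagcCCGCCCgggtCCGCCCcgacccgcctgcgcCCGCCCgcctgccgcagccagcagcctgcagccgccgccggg

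The TMEM222, IFI6 and FAM76A windows held 3, 1 and 6 such matches and had a GC content of 74.0%, 54.0% and 72.0%. RefSeq windows were matched for 303 of the 366 members, and 59.1% of them held a GC box core, against 59.6% of the windows of 15199 protein-coding genes in all. The median GC content of the windows was 66.3% for members and 63.0% for all protein-coding genes. The letters TATAAA or TTTATA were in 7.92% of the member windows and in 9.48% of all.

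The chromatin RNA libraries held between 17484067 and 21553760 estimated counts and the mRNA-seq libraries between 10216430 and 17215978. DICER1, the target of shDicer, was at 119 and 124 CPM (counts scaled to a common library size) in wt chromatin RNA and at 107 and 108 in shDicer (log2 fold change −0.18 ± 0.09 SE, adjusted p = 0.166), and it fell by 1.49 on the log2 scale in shDicer mRNA (adjusted p = 1.28e-07). AGO2 fell by 0.62 in shAgo2 chromatin RNA (adjusted p = 9.29e-05), where DICER1 rose by 0.78 (adjusted p = 3.6e-05). DROSHA was at 146 and 153 CPM in wt and at 166 and 148 CPM in the libraries labelled shDrosha (log2 fold change 0.07, adjusted p = 0.697). Its chromatin RNA was thus not lower there, and shDrosha is used only as a label. The paper itself reports qRT-PCR of steady-state Drosha RNA for its chrRNA-seq samples and a western blot of the knockdown. Those were not analysed here, and whether Drosha protein was lowered was not tested. The line markers KRT8, KRT18 and VIM were above 8 CPM in every library. They moved with the groups: KRT8 rose by 1.50 in shDicer and 1.82 in shAgo2 chromatin RNA, and VIM fell by 1.50 and 1.21. In the libraries labelled shDrosha, KRT8 had 0.07 and VIM also fell, by 0.80 (adjusted p = 0.0253). In shDicer mRNA KRT8 rose by 1.51, while VIM had 0.06 (adjusted p = 0.678). The part of such differences in the results was not tested. PAX2 was above 10 CPM in chromatin RNA but below 0.27 CPM in mRNA. Among markers of other cell types, the highest values were 0.109 CPM for CD3E, 0.382 for ALB, 0.991 for COL3A1 and 2.17 for PTPRC.

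Most members had more chromatin RNA in shDicer and shAgo2 cells than in wt cells. Of the 366 members, 300 had enough counts to be tested there. The other 66 never exceeded 1.86 CPM in a chromatin RNA library, and 13 members had no count in any of the 14 libraries. In shDicer, 131 members were higher and 1 was lower at an adjusted p under 0.005, against 11.0% and 10.5% of all 32874 genes tested. In shAgo2, 122 were higher and none was lower, against 12.5% and 12.1%. Since the boundary was drawn from these contrasts, these counts only describe it. Without wt replicate 1 or 2, the members called were 76 and 71 in shDicer and 75 and 77 in shAgo2, and without shAgo2 replicate 1 they were 77 in shAgo2. The absence of lower calls in shAgo2 comes from edgeR, and at an unadjusted p under 0.05 there were 7 lower members beside 190 higher ones. The median log2 fold change of the tested members was 0.46 in shDicer (interquartile range 0.23 to 0.76) and 0.44 in shAgo2 (0.16 to 0.79), which is a level 1.38 and 1.36 times that of wt. The 16365 tested protein-coding genes outside the stretch had medians of −0.05 and −0.04. Above 0 were 270 of the 300 members in shDicer and 257 in shAgo2, and 250 in both. For scale, 4 against 3 copies of a template is 0.415 on the log2 scale and 3 against 2 is 0.585. DNA was not analysed here.

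**Figure D1:**
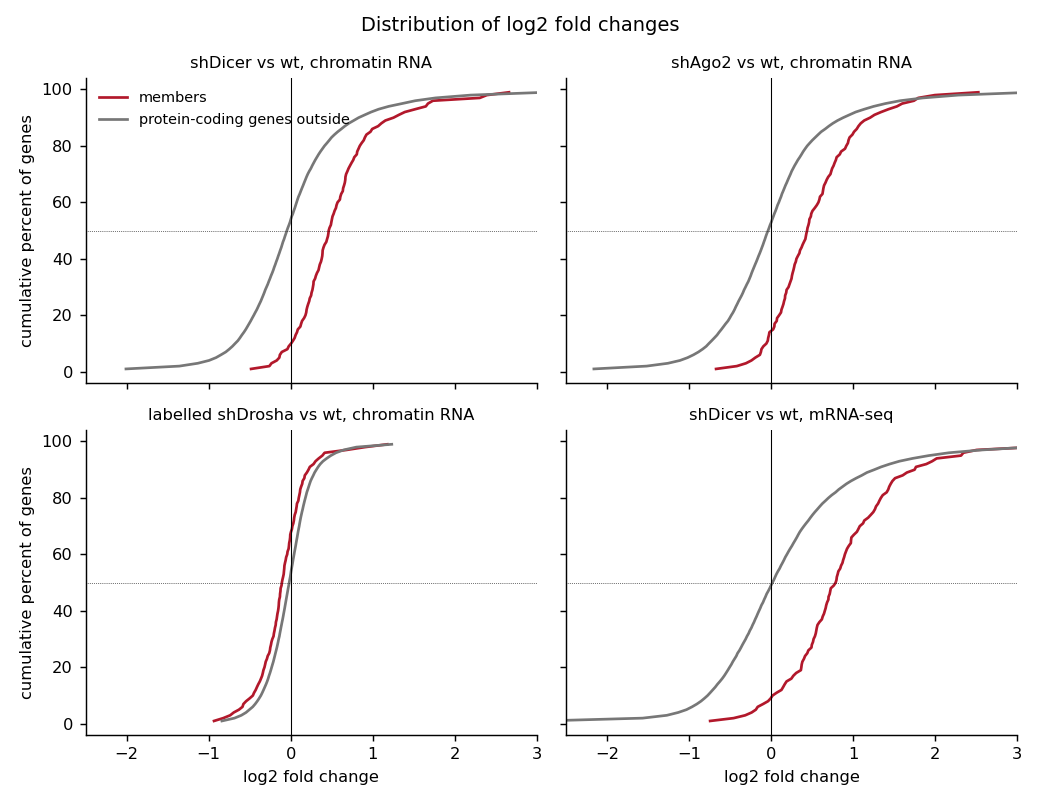
Cumulative percent of genes (vertical axis) against log2 fold change (horizontal axis) in 4 comparisons, drawn at the 1st to 99th percentiles for the tested members (red) and for the tested protein-coding genes outside the stretch (grey). The red curves lie to the right of the grey ones over most of their course in shDicer and shAgo2, with medians of 0.46 and 0.44 in chromatin RNA and 0.79 in mRNA, and slightly to the left in the libraries labelled shDrosha, with a median of −0.11.

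The shDicer and shAgo2 libraries lay above the wt libraries and those labelled shDrosha. On the scale of the median of log2(CPM + 0.5) minus the mean of the 8 chromatin RNA libraries, the members stood at −0.17 and −0.20 in wt, at 0.28 and 0.23 in shDicer, at 0.22 and 0.23 in shAgo2, and at −0.33 and −0.28 in the libraries labelled shDrosha. Protein-coding genes outside the stretch stayed between −0.02 and 0.03. The members took 1.48% of all protein-coding counts in each wt library. This share was 2.18% and 2.15% in shDicer and 2.19% and 2.20% in shAgo2, a ratio of means to wt of 1.46 and 1.48. It was 1.40% and 1.39% in the libraries labelled shDrosha, a ratio of 0.942. All 4 shDicer and shAgo2 libraries were above all 4 wt and shDrosha libraries for 203 of the 300 members and below them for 2, where 19.6% and 18.1% of all tested genes had these orders.

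The libraries labelled shDrosha did not show the upward shift. There the median of the 300 members was −0.11 (interquartile range −0.26 to 0.06), 1 member was higher and 18 were lower at an adjusted p under 0.05, and 1.19% and 2.18% of all genes tested were called higher and lower. These libraries were compared with the same 2 wt libraries, and without wt replicate 1 or 2 there were 1 and 2 members called. The lower members included SPEN, a nuclear repressor (log2 fold change −0.74, adjusted p = 0.0018), the glycolytic enzyme ENO1 (−0.82, adjusted p = 0.0285) and PGD of the pentose phosphate pathway (−0.90, adjusted p = 0.0126). The higher one was DHRS3, a retinal reductase (0.68, adjusted p = 0.0185). Members are GC-rich, with a median of 57.2% over the tested ones against 49.2% for other tested protein-coding genes, and in the upper GC tertile the shDrosha median was −0.14 for the members and −0.15 for the others. With the median of each of 10 GC bins subtracted, the member median in the libraries labelled shDrosha became −0.0042, while it became 0.53 in shDicer and 0.55 in shAgo2. Taking the libraries labelled shDrosha as the reference in place of wt, a comparison added after the data were seen, 168 members were higher and none lower in shDicer (median 0.61, 4 lower at an unadjusted p under 0.05), and 154 were higher and 1 lower in shAgo2 (median 0.56), against backgrounds of 11.0% and 9.51% and of 11.6% and 10.3%.

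The mRNA libraries were separate samples. Of the 221 members tested in mRNA, 111 rose in shDicer and 1 fell at an adjusted p under 0.001, while 15.6% of all 15090 genes tested rose and 14.2% fell. Without wt replicate 1 or 2, 59 and 72 members were called. The median log2 fold change was 0.79 (interquartile range 0.44 to 1.25, 1.73 times wt), against 0.02 for 12534 protein-coding genes elsewhere, and 200 of 221 values were above 0. All 3 shDicer libraries were above all 3 wt libraries for 173 members and below them for 5, where 32.8% and 31.6% of all tested genes had these orders. The member median stood at −0.34, −0.36 and −0.38 in the wt libraries and at 0.52, 0.31 and 0.30 in the shDicer libraries, on the log2(CPM + 0.5) scale relative to the mean of the 6. The share of protein-coding counts was 0.936% ± 0.007 (SD, n = 3) in wt and 1.58% ± 0.11 (SD, n = 3) in shDicer, 1.69 times as much. That the mRNA of this stretch was raised was known when the members were chosen.

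The shift ran through the whole stretch and ended between neighbouring genes. In 9 consecutive bins of 3 Mb from the telomere, the median log2 fold change was between 0.37 and 0.54 in shDicer, between 0.23 and 0.58 in shAgo2 and between 0.39 and 0.89 in shDicer mRNA, with 13 to 54 tested members per bin in chromatin RNA and 6 to 39 in mRNA. In the libraries labelled shDrosha the same bins ran from −0.22 to 0.06. The 33 tested genes between the boundary and the end of the next bin had medians of −0.27 in shDicer, −0.29 in shAgo2 and, over 29 genes, −0.42 in mRNA. In the following bin, from 30 to 33 Mb, the medians were −0.62, −0.76 and −0.72.

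**Figure D2:**
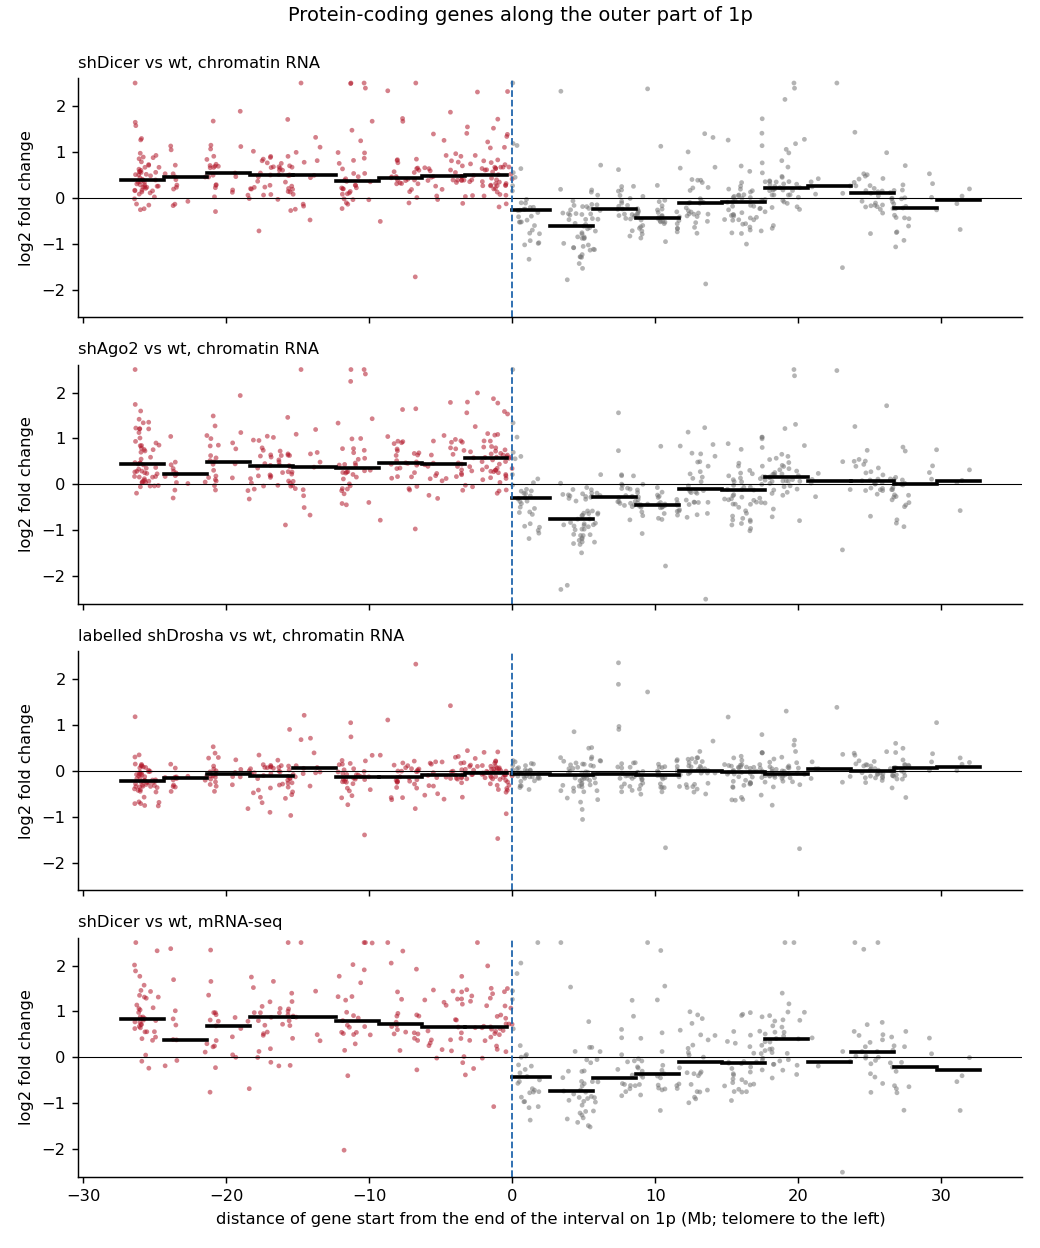
Log2 fold change (vertical axis; values beyond 2.5 in size are drawn at 2.5) of each tested protein-coding gene against the distance of its start from the boundary in Mb (horizontal axis; telomere to the left), for members (red) and genes beyond the boundary (grey). Black bars are medians of 3 Mb bins and the dashed line is the boundary. In shDicer and shAgo2 the bars lie between 0.23 and 0.89 to its left and are below 0 in the 6 nearest bins to its right. Some bars farther right are above 0. In the libraries labelled shDrosha the bars lie between −0.22 and 0.07 in the bins nearest to the boundary.

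The raised stretch is thus followed by a lowered one. In the 12 Mb after the boundary, 70 of 148 tested genes were lower and 7 higher in shDicer chromatin RNA, 69 were lower and 7 higher in shAgo2, and 45 of 116 were lower and 12 higher in shDicer mRNA. Over all genes tested, 10.5%, 12.1% and 14.2% were lower and 11.0%, 12.5% and 15.6% were higher in these comparisons. The medians of the genes in the 12 Mb were −0.39, −0.42 and −0.44. In the libraries labelled shDrosha the median of these 148 genes was −0.09, with 2 higher (1.35%) and 9 lower (6.08%). Over all genes tested there, 1.19% were higher and 2.18% lower. From 12 Mb beyond the boundary to the end of the arm, the medians were −0.07 in shDicer, −0.02 in shAgo2 and −0.15 in mRNA. Within that part, the bin from 45 to 48 Mb had medians of 0.22, 0.16 and 0.41. The share of protein-coding counts from the lowered 12 Mb was 1.43% in wt chromatin RNA and 1.06% and 1.08% in shDicer and shAgo2, a ratio of 0.739 and 0.755.

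The position of the end was located with 1 change point over the tested protein-coding genes of the arm, chosen as the split that leaves the smallest summed absolute deviation from the medians of its sides. It fell between IFI6 (start 27666064) and FAM76A (start 27725961), 59.9 kb apart, in shDicer chromatin RNA, in shAgo2 chromatin RNA and in shDicer mRNA. This lies beyond TMEM222, at which the boundary of the members was set. Each of the 4 shDicer and shAgo2 chromatin RNA libraries and each of the 3 shDicer mRNA libraries, compared alone with the wt mean, gave the same split. Within an assay these comparisons share the same wt mean, so they are not independent of each other. The chromatin RNA libraries are also those by which the boundary was chosen, so their splits only describe it. In the libraries labelled shDrosha the split was farther along the arm, between LDLRAD1 (start 54007298) and TMEM59 (start 54026681), with medians of −0.08 and 0.09 on its sides. When genes under a mean log2 CPM of 3 were set aside it moved, to between AHDC1 (start 27534035) and FAM76A in both chromatin comparisons and to between WASF2 (start 27404230) and FAM76A in mRNA, since IFI6 is below that level.

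Just inside the boundary, TRNP1, TENT5B, WDTC1 and TMEM222 had log2 fold changes of 1.38, 2.32, 0.51 and 0.41 in shDicer and of 0.64, 1.53, 0.59 and 0.35 in shAgo2 chromatin RNA. Just outside it, SYTL1, MAP3K6, FCN3, GPR3 and WASF2 had 0.15, 0.26, 2.58, 1.18 and 0.55 in shDicer and 0.21, −0.02, 2.96, 1.34 and 0.70 in shAgo2. FCN3 and GPR3 are sparse genes, at or below 0.95 CPM in wt chromatin RNA. IFI6 and FAM76A, the genes at the change point, were singled out after their values were seen. IFI6, an interferon-induced membrane protein, was at 2.87 and 2.65 CPM in wt, 5.74 and 6.39 in shDicer, 5.45 and 5.81 in shAgo2, and 2.64 and 3.07 in the libraries labelled shDrosha. FAM76A was at 30.1 and 27.6 CPM in wt, 24.1 and 23.6 in shDicer, 22.6 and 23.7 in shAgo2, and 26.6 and 26.7 in those labelled shDrosha. All shDicer and shAgo2 libraries were thus above wt for IFI6 and below wt for FAM76A. In chromatin RNA FAM76A missed the threshold of 0.005 (−0.27, adjusted p = 0.0285 in shDicer, and −0.32, adjusted p = 0.0126 in shAgo2). TMEM222 missed it too (adjusted p = 0.0188 in shDicer and 0.0384 in shAgo2). In mRNA, IFI6 rose from between 1.86 and 2.76 CPM in wt to between 7.04 and 9.48 CPM in shDicer (adjusted p = 3.06e-05), and FAM76A fell from between 36.0 and 38.5 to between 24.5 and 26.2 CPM (log2 fold change −0.57 ± 0.09 SE, adjusted p = 0.000385). Single genes farther on were also higher, such as SMPDL3B (start 27935000, chosen after its values were seen), with 0.64 in shDicer, 0.61 in shAgo2 and 2.05 in mRNA.

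At the telomeric end the stretch has no edge within the tested genes. SAMD11, the first tested member (start 923923), was at 28.3 and 24.7 CPM in wt and at 30.0 and 22.3 CPM in shDicer chromatin RNA, values that overlap. In shAgo2 chromatin RNA it was at 29.95 and 29.9 CPM, above both wt libraries but without a call (log2 fold change 0.17, adjusted p = 0.337). Its mRNA was at 10.4, 12.8 and 13.5 CPM in wt and at 70.9, 39.6 and 36.9 CPM in shDicer (log2 fold change 2.01 ± 0.24 SE, adjusted p = 3.65e-05).

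The shift was present in members of every level, GC content and length. Split by tertiles of wt TPM over all tested protein-coding genes, the member median exceeded that of genes elsewhere by 0.45, 0.49 and 0.58 (low, middle and high) in shDicer chromatin RNA, by 0.42, 0.38 and 0.62 in shAgo2 and by 0.46, 0.68 and 0.86 in mRNA. Over GC tertiles the excess was 0.49, 0.40 and 0.63 in shDicer and 0.49, 0.43 and 0.64 in shAgo2, although only 14 members are in the low GC tertile. Over gene length tertiles it was 0.58, 0.48 and 0.56 in shDicer and 0.58, 0.45 and 0.54 in shAgo2. Non-coding genes of the stretch are no members. The 140 tested lncRNA genes had medians of 0.48 in shDicer, 0.34 in shAgo2 and −0.0014 in the libraries labelled shDrosha, against 0.06, 0.05 and 0.03 for lncRNA genes elsewhere, and in mRNA 37 lncRNA genes had a median of 0.73, with 11 called higher. The 39 tested processed pseudogenes had medians of 0.71 in shDicer, 0.66 in shAgo2 and −0.12 in the libraries labelled shDrosha, and the 1 tested in mRNA had −0.20.

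Regional shifts were also found elsewhere. In windows of 100 neighbouring tested protein-coding genes, the 3 windows made of members had medians of 0.45, 0.48 and 0.47 in shDicer and ranked 5, 3 and 4 of 154 windows. In shAgo2 they had 0.43, 0.42 and 0.48 and ranked 4, 6 and 3. The window with the highest median was on chromosome 19 in both (0.71 and 0.81). In mRNA the 2 windows with 97 members each ranked 3 and 4 of 114. In the libraries labelled shDrosha the 3 windows ranked 142, 131 and 98 of 154.

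In wt chromatin RNA, the 10 tested members of highest mean TPM were ENO1, UBR4, EIF4G3, SPEN, HMGN2, RSRP1, SRRM1, HP1BP3, RERE and CCNL2. RERE, a corepressor of nuclear receptors, was at 113 and 109 CPM in wt, 244 and 237 in shDicer, 240 and 245 in shAgo2, and 113 and 114 in the libraries labelled shDrosha. The shDicer and shAgo2 libraries were all above the others. EIF4G3, a scaffold of translation initiation, was at 218 and 224 CPM in wt, 349 and 321 in shDicer, 354 and 357 in shAgo2, and 216 and 238 in those labelled shDrosha (log2 fold change 0.60 ± 0.08 SE in shDicer and 0.69 ± 0.08 in shAgo2). Its mRNA rose by 0.90 ± 0.08 SE (adjusted p = 5.63e-06). In contrast, ENO1 was at 980 and 1084 CPM in wt chromatin RNA, 916 and 1233 in shDicer, which spans wt, and 911 and 968 in shAgo2, below both wt libraries (log2 fold change −0.14, adjusted p = 0.569), while its mRNA rose from between 1745 and 1796 CPM to between 2643 and 3306 CPM (log2 fold change 0.79 ± 0.09 SE, adjusted p = 2.46e-05). HMGN2, a nucleosome-binding protein, overlapped between wt and shAgo2 chromatin RNA and rose in mRNA (0.63 ± 0.10 SE, adjusted p = 0.000252), but it shares 19.9% of its 31-base words with other genes, so its counts are uncertain.

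The role lists are read against 2 shares of higher calls. Over all genes tested the share was 11.0% in shDicer chromatin RNA, 12.5% in shAgo2 and 15.6% in mRNA, and over all tested members it was 43.7%, 40.7% and 50.2%, with a stricter threshold in mRNA. Of 20 genes of mitochondria and energy metabolism, all of them tested, 8 were higher in shDicer chromatin RNA, 9 in shAgo2 and 13 rose in mRNA, and none was lower in any of these. Their medians were 0.40, 0.35 and 0.81. PINK1, a kinase that marks damaged mitochondria, was at 32.9 and 30.5 CPM in wt, 58.9 and 54.7 in shDicer and 42.8 and 46.2 in shAgo2, and at 31.2 and 31.4 in those labelled shDrosha. Its mRNA was at 27.2, 26.5 and 24.3 CPM in wt and at 113, 95.5 and 87.2 in shDicer (log2 fold change 1.92 ± 0.11 SE, adjusted p = 1.91e-07). The wt and shDicer mRNA libraries did not overlap. PARK7, a redox sensor, rose by 0.87 ± 0.07 SE in mRNA (adjusted p = 2.99e-06), SDHB of the respiratory chain by 0.67 ± 0.06 SE (adjusted p = 7.31e-06) and PGD by 1.21 ± 0.07 SE (adjusted p = 2.48e-07). In the libraries labelled shDrosha, 5 of the 20 were lower and none was higher at an adjusted p under 0.05 by edgeR. Over all genes tested 2.18% were lower there, and over all tested members 6%.

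Of 20 growth signalling genes, 8 were higher in shDicer chromatin RNA and 8 in shAgo2, and 10 of 19 tested rose in mRNA (11.0%, 12.5% and 15.6% of all genes, 43.7%, 40.7% and 50.2% of all tested members). MTOR, the kinase at the centre of nutrient signalling, was at 340 and 342 CPM in wt, 506 and 560 in shDicer, 545 and 583 in shAgo2, and 362 and 311 in those labelled shDrosha. Its mRNA was at 115, 113 and 118 CPM in wt and at 240, 246 and 236 CPM in shDicer (log2 fold change 1.07 ± 0.06 SE, adjusted p = 2.85e-07), and the shDicer libraries were above the wt libraries in both assays. Among the members of the list without a call were CDC42, a small GTPase (0.04 in shDicer and 0.24 in shAgo2 chromatin RNA, −0.02 in mRNA), and the Wnt ligand WNT4 (−0.04 and −0.31). The paired copies CDK11A and CDK11B share 56.8% and 64.8% of their 31-base words with other genes and are uncertain.

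Of 20 candidate tumour suppressors and cell death genes, 10 were higher in shDicer and 10 in shAgo2 chromatin RNA, and 5 of 18 tested rose in mRNA, beside 11.0%, 12.5% and 15.6% of all genes and 43.7%, 40.7% and 50.2% of all tested members. ARID1A, a subunit of the SWI/SNF remodeller, was at 204 and 211 CPM in wt, 340 and 320 in shDicer, 320 and 325 in shAgo2, and 186 and 190 in those labelled shDrosha. Its mRNA had a log2 fold change of 0.59 ± 0.15 SE, which missed the threshold (adjusted p = 0.0055). RUNX3, a transcription factor, was at 4.81 and 4.35 CPM in wt and between 17.8 and 23.9 CPM in the shDicer and shAgo2 libraries, and its mRNA was at or below 0.405 CPM in wt and between 2.65 and 4.23 CPM in shDicer. SPEN was at 529 and 521 CPM in wt, 498 and 455 in shDicer and 626 and 644 in shAgo2, and its mRNA had −0.40 ± 0.11 SE (adjusted p = 0.00926).

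**Figure D3:**
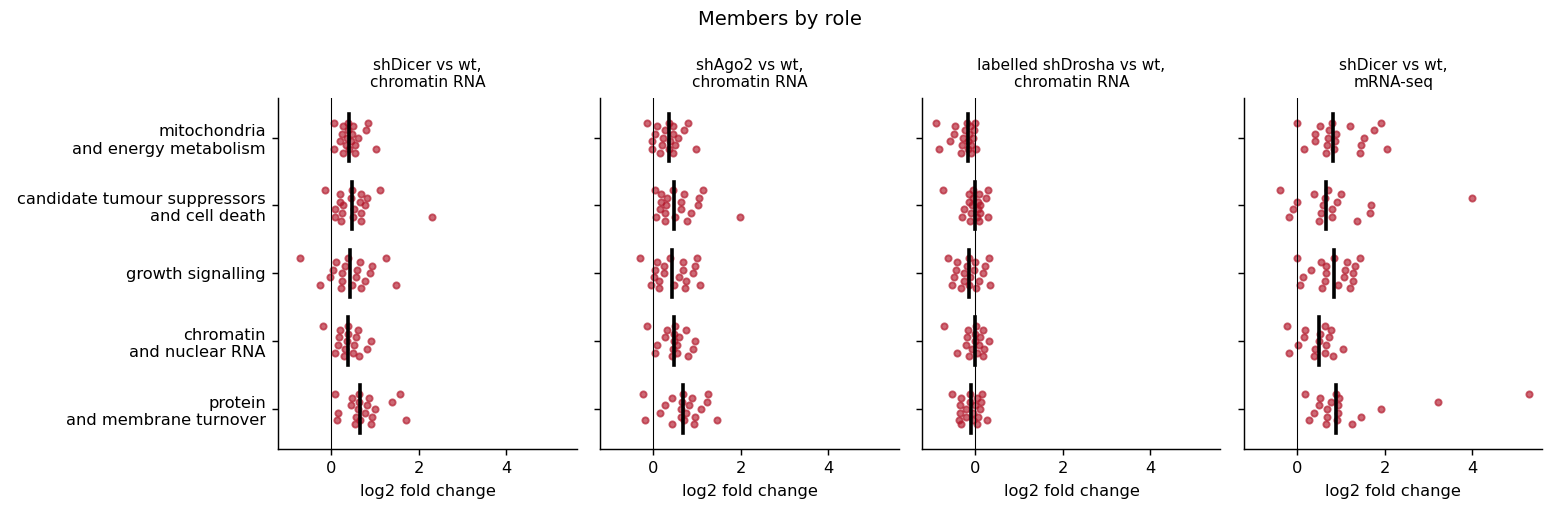
Log2 fold change (horizontal axis) of the tested members of 5 role lists (rows), each point 1 gene and each black bar the median of the list, in 4 comparisons (shDrosha is a label). The medians lie between 0.35 and 0.69 in shDicer and shAgo2 chromatin RNA and between 0.50 and 0.88 in mRNA, and between −0.18 and −0.0066 in the libraries labelled shDrosha.

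Of 17 chromatin and nuclear RNA genes, 8 were higher in shDicer and 10 in shAgo2 chromatin RNA, and 8 of 16 tested rose in mRNA. The shares were 11.0%, 12.5% and 15.6% over all genes and 43.7%, 40.7% and 50.2% over all tested members. KDM1A, a histone demethylase, was at 80.9 and 87.9 CPM in wt, 119 and 138 in shDicer and 149 and 143 in shAgo2, and its mRNA rose by 0.38 ± 0.07 SE (adjusted p = 0.000517). TARDBP and SRRM1, both of which bind RNA, were higher in chromatin RNA (TARDBP 0.51 in shDicer and 0.53 in shAgo2, SRRM1 0.49 and 0.58), whereas their mRNA had −0.19 (adjusted p = 0.12) and −0.24 (adjusted p = 0.265). Of 20 protein and membrane turnover genes, 15 were higher in shDicer and 14 in shAgo2 chromatin RNA, and 12 of 19 tested rose in mRNA, beside the same shares over all genes and all members. VPS13D, a lipid transfer protein, was at 254 and 278 CPM in wt, 489 and 566 in shDicer, 552 and 580 in shAgo2, and 303 and 272 in those labelled shDrosha. CAPZB, which caps actin filaments, was at 25.9 and 23.1 CPM in wt, 42.9 and 40.2 in shDicer and 45.0 and 48.9 in shAgo2, and its mRNA rose by 0.96 ± 0.08 SE (adjusted p = 2.74e-06).

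Few genes of the stretch that are typical of other tissues were detected. Only 2 of 7 TNF receptor superfamily genes passed the filter in chromatin RNA and none in mRNA, and TNFRSF25, a death receptor, was higher in shDicer (0.66, adjusted p = 0.0015) with 0.31 in shAgo2. Of 15 genes of blood, gut and skin, 7 passed, and PADI2, a peptidylarginine deiminase, was the only one called in either comparison. It was at 2.81 and 2.11 CPM in wt, 12.2 and 13.5 in shDicer and 12.9 and 13.0 in shAgo2.

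The spread of the members was wide at its upper end. Among those called in both chromatin comparisons and not under 3 in mean log2 CPM, the 5 of highest mean log2 fold change were DHRS3 (2.70 in shDicer and 2.52 in shAgo2), PADI2 (2.39 and 2.40), RUNX3 (2.30 and 1.99), EXTL1 (1.52 and 1.87) and ARHGEF10L (1.67 and 1.43). The 5 lowest were STPG1, NBPF3, DHDDS, DDI2 and WRAP73, between 0.34 and 0.52, and NBPF3 and DDI2 share 26.6% and 20.3% of their 31-base words with other genes. DHRS3 was at 5.34 and 6.38 CPM in wt, 37.8 and 38.4 in shDicer, 35.2 and 32.1 in shAgo2, and 9.71 and 9.04 in those labelled shDrosha. MFAP2, a microfibril protein chosen here after its values were seen, was at or below 0.102 CPM in wt mRNA, under the 3-count floor of those libraries, and at 17.2, 11.3 and 10.1 CPM in shDicer mRNA. It was at 0.889 and 0.505 CPM in wt chromatin RNA and between 7.84 and 10.4 CPM in the shDicer and shAgo2 libraries. Outside the libraries labelled shDrosha, the members called lower, singled out after their values were seen, were FAM43B in shDicer chromatin RNA (−1.72, adjusted p = 0.00377, at or below 2.27 CPM in every chromatin RNA library) and AGMAT in mRNA (−2.02, adjusted p = 0.000134).

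Most members lay above wt in both chromatin RNA and mRNA of shDicer. Of 220 members tested in both, 194 (88.2%) were above 0 in both, and 34.2% of other protein-coding genes were. Of the 112 higher in chromatin RNA, 74 (66.1%) rose in mRNA, which is 66.7% of the 111 that rose there. Over all tested members 50.2% rose in mRNA, and over all genes tested 15.6%. The median was 0.46 in chromatin RNA and 0.79 in mRNA, and 160 members had the larger value in mRNA. The overlap of calls and the count of larger mRNA values are not given here for genes elsewhere, so both only describe the members. The median of the difference was 0.30, against 0.10 for other protein-coding genes tested in both. Across these 220 genes, which share libraries and are not independent replicates, Spearman's rho between both values was 0.44, and it was 0.67 over protein-coding genes elsewhere. The interquartile range of these members was 0.42 wide in chromatin RNA and 0.81 in mRNA, against 0.64 and 0.94 elsewhere. Because the members had the narrower spread, their rho cannot be compared directly with that elsewhere. Both assays were separately normalized, so the difference in size between chromatin RNA and mRNA is set side by side only.

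**Figure D4:**
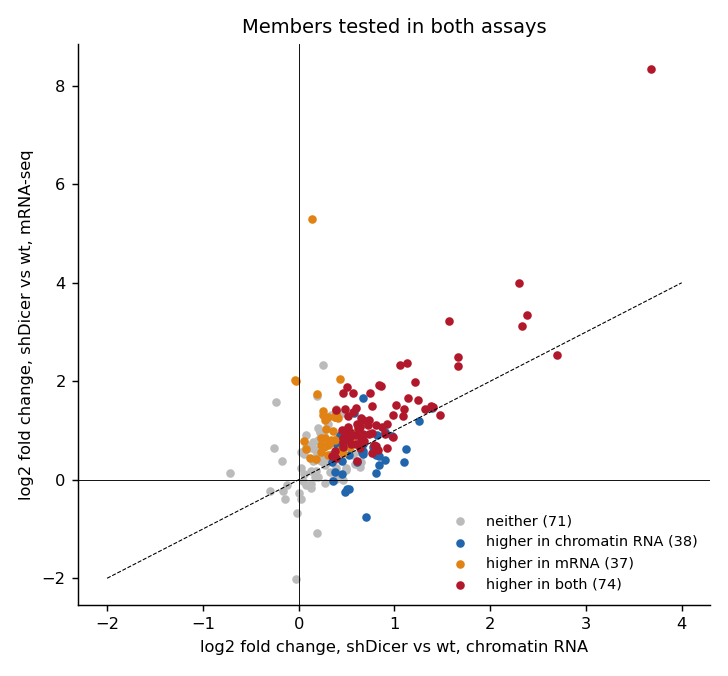
Log2 fold change of shDicer against wt in mRNA-seq (vertical axis) and in chromatin RNA (horizontal axis) for the 220 members tested in both, coloured by the calls in each assay; the dashed line marks equal values. Most points lie in the upper right, 74 are called higher in both assays, and 160 lie above the line.

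At the level of mRNA, the called members of highest log2 fold change (again not under 3 in mean log2 CPM) were AGRN (3.22), DHRS3 (2.53), TMCO4 (2.32), ALDH4A1 (2.05) and SAMD11 (2.01), and the lowest were KDM1A (0.38), MFN2 (0.41), RER1 (0.44), VAMP3 (0.45) and RCC2 (0.49). AGRN, a basement membrane proteoglycan, was at 2.48, 3.06 and 1.78 CPM in wt mRNA and at 39.9, 13.4 and 15.6 CPM in shDicer. FBXO6, a ubiquitin ligase subunit, was at 12.1 and 10.5 CPM in wt and 12.6 and 12.2 CPM in shDicer chromatin RNA, whereas its mRNA was at or below 0.181 CPM in wt and at 4.30, 3.59 and 3.86 CPM in shDicer.

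Of the 7 genes left out of the stretch, RBP7, RPL22, HNRNPR and SRSF10 were higher in both chromatin comparisons, with log2 fold changes between 0.43 and 1.47, and RPL11 was called in shAgo2 (0.51, adjusted p = 0.0033) and had 0.30 in shDicer (adjusted p = 0.0584). EXOSC10 and ISG15 lay between 0.21 and 0.47 without a call.

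The shDicer and shAgo2 libraries were then compared with each other. Between them the median member difference was 0.04, and 7 of 300 members differed at an adjusted p under 0.005, 4 higher in shDicer (1.37% of all genes tested) and 3 higher in shAgo2 (1.34%). EPHB2, a receptor tyrosine kinase, was at 32.2 and 30.8 CPM in wt, 56.0 and 63.3 in shDicer and 34.9 and 33.8 in shAgo2, so the shAgo2 libraries lay near wt and the shDicer libraries above both. TMCO4, TRNP1 and KAZN were higher in shDicer by 0.74, 0.75 and 0.62. B3GALT6, ACAP3 and PUSL1, which start between 1232237 and 1308597, were higher in shAgo2 (shDicer minus shAgo2 −0.50, −0.65 and −0.57). With either shAgo2 library left out, none of the members passed this threshold by edgeR, although 34 and 31 were higher and 22 and 23 lower in shDicer at an unadjusted p under 0.05.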

How the data were processed

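Chromatin-associated RNA (8 libraries) and mRNA-seq (6 libraries) were used. The authors estimated transcript abundance with kallisto, in a stranded mode, against Ensembl release 89 cDNA and ncRNA (GRCh38). The deposited estimated counts (expected counts) are not normalized, and the deposited TPM values are corrected for transcript length and library total. The submitters' processing notes also name Bowtie, TopHat2 and DESeq2 and the hg38 build. The mRNA-seq labels name polyA RNA, whereas the methods describe ribosomal RNA depletion.

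Transcripts were matched to genes by GENCODE release 44 (193697 of 217082 transcripts, 93.4 to 94.8% of the counts of a library), and estimated counts were summed per gene and rounded. Of 377 annotated protein-coding genes of the stretch, 7 were left out and 366 had transcripts in the files. Genes were filtered with filterByExpr and scaled by TMM, and edgeR 4.0.16 (R 4.3.3) quasi-likelihood tests were run over all 32874 or 15090 genes, 1 fit per assay with a term for each group and Benjamini-Hochberg adjustment. Every adjusted p is from these fits. The thresholds are those of the study, 0.005 for shDicer and shAgo2, 0.05 for shDrosha and 0.001 for mRNA. CPM uses TMM-scaled library sizes. A share of 3 counts is 0.139 to 0.172 CPM in chromatin RNA and 0.174 to 0.294 CPM in mRNA, which covers counting error only. The procedure was tested on simulated data. The 31-base words shared with other genes were counted, and 87 members share 10% or more.

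The members and gene lists were chosen with earlier results of these data known. Genes were named by rule: the 10 members of highest TPM in wt chromatin RNA, the 5 highest and 5 lowest called in both chromatin comparisons and in mRNA, 5 genes on each side of the boundary, and role lists. The values of 1 gene that this rule names are not reported here. Alternatives were DESeq2 1.42.0, other scalings, no filter, a replicate block, left-out libraries, GC correction, other thresholds and criteria for the change point. The 6 small RNA samples were not analysed here.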

Additional observations from a re-analysis of the deposited data

Results flagged for a closer look

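In the direct comparison of shDicer and shAgo2, 7 of 300 members differed (edgeR quasi-likelihood test, adjusted p under 0.005). Of the members 1.33% were higher and 1% lower in shDicer, near the 1.37% and 1.34% of all genes tested. The 2 shDicer libraries lay on 1 side of the 2 shAgo2 libraries for each of the 7, which adds little for genes called with 2 libraries a group. As shDicer minus shAgo2 on the log2 scale, the differences were 0.80 for EPHB2, 0.75 for TRNP1, 0.74 for TMCO4, 0.62 for KAZN, −0.50 for B3GALT6, −0.65 for ACAP3 and −0.57 for PUSL1. These genes were singled out after their values were seen. ACAP3 and PUSL1 overlap on opposite strands, and the counting is stated to use strand.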

How the results depend on the processing

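Of 134 alternative values, 91 kept their direction and stayed within the limits set for a change, 43 moved further and none reversed. With 2 or 3 libraries a group, counts of calls depend on single libraries. With 1 library left out, which in chromatin RNA leaves a group with 1 sample assumed to vary like the others, calls numbered 71 to 121 in shDicer (132 with all), 75 to 87 in shAgo2 (122), 1 to 21 in shDrosha (19) and 59 to 105 in mRNA (112). The lowest counts came without a wt library: without chromatin wt 1 or 2, shDicer had 76 and 71 calls, shAgo2 75 and 77, and shDrosha 1 and 2, shAgo2 had 77 without its replicate 1, and mRNA had 59 and 72 without wt 1 or 2. Differences between shDicer and shAgo2 numbered 0 to 6 (7 with all) and were 0 without either shAgo2 library (edgeR, with 34 and 31 higher and 22 and 23 lower at an unadjusted p under 0.05). Over these omissions the medians ran from 0.4385 to 0.5062, 0.3975 to 0.436, −0.1401 to −0.06684 and 0.681 to 0.8497 (shDicer, shAgo2, shDrosha, mRNA), and the change point stayed at 27666064.

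Other settings moved counts as follows: without a low-count filter 30 (shDrosha) and 16 (difference), at an adjusted p under 0.05 172 (mRNA) and 29 (difference), and for the difference 4 with library size only and 11 with the DESeq2 Wald test. Medians became 0.5054, 0.4752 and −0.05358 with library size only (shDicer, shAgo2, shDrosha), 0.5299, 0.5455, −0.004205 and 0.6246 after GC correction (mRNA last), 0.5048 and 0.4649 without members that share sequence, and 0.4187 in shAgo2 for log2 CPM of 3 or more. The latter put the change point at 27534035 in chromatin RNA and 27404230 in mRNA. Share ratios became 1.478 (shDicer) and 0.939 (shDrosha) with TPM, and 1.496, 1.447 and 0.958 without the 10 members of most counts. The cause was not tested.

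Replicate numbers were not taken to pair the samples, because same-number correlations were mixed. They were 0.080, 0.046 and 0.256 in mRNA and 0.277, 0.095 and −0.335 in chromatin RNA (wt with shDicer, shAgo2 and shDrosha). In chromatin RNA shDicer had 0.056 with shAgo2 and −0.477 with shDrosha, and shAgo2 had −0.175 with shDrosha. Whether samples of 1 number were handled together was not tested. In mRNA not every library correlated best with its own number. With a replicate block the calls numbered 112, 105, 14 and 124 (shDicer, shAgo2, shDrosha, mRNA) and 4 for the difference. With the shDrosha numbers crossed in the block, chosen after seeing the data, shDrosha had 48 calls.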
